A study of Homo sapiens with 64 samples.

Results

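The genes described here are 10 enzymes of chondroitin sulfate synthesis, out of 19775 genes measured. They were taken by symbol, with every probe set that the platform annotation gives to one of the 10, which made 21 probe sets. CSGALNACT1 was chosen by its own signal, which had been seen higher at a late time after indacaterol, and the other 9 were added to see whether the rest of the pathway rose with it. The 6 h and 18 h values of CSGALNACT1 are therefore a description with no test. Its values at 1 and 2 h, and all values of the other 9, were tested.

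Expression was measured on 64 arrays of cells labelled BEAS-2B, a human line of immortalised cells from airway epithelium. Cultures received vehicle, indacaterol at 10 nM, GSK 256066 at 10 nM, or both drugs at 10 nM each, for 1, 2, 6 or 18 h, which gave 16 groups of 4 replicates. Indacaterol is a long-acting agonist of the beta2-adrenoceptor, which raises cyclic AMP through adenylyl cyclase, and GSK 256066 inhibits phosphodiesterase 4, which breaks cyclic AMP down. All groups carry the same cell line label, though the arrays numbered replicate 3 stood apart from the rest in keratin signals, given below. The labels do not say whether the numbered replicates were separate cultures. The p-values then measure only the spread between these samples, which among replicates 1, 2 and 4 may be technical, and 4 arrays per group limit the precision.

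Chondroitin sulfate is a sulfated sugar chain carried by proteoglycans at the cell surface and in the matrix. A xylosyltransferase starts the chain by placing xylose on a serine of the core protein, and a short linker shared with heparan sulfate follows. CSGALNACT1 and CSGALNACT2 then add the N-acetylgalactosamine that commits the linker to chondroitin sulfate, CHSY and CHPF proteins lengthen the chain by alternating sugars, and sulfotransferases such as CHST11 and CHST3 decorate it. In the airway such chains are carried by proteins of the matrix beneath the epithelium and of the cell surface.

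Levels are signals of probe sets on the deposited linear scale, and differences are those of log2(signal + 16), so that changes of dim genes come out too small. Each difference has its standard error (SE) from a limma fit over all 64 arrays, with Benjamini-Hochberg adjustment over all 19775 genes, and a gene was called at an adjusted p under 0.05. Signals of different probe sets were not set against each other. The comparisons with vehicle at one time share the same 4 vehicle arrays. Because RNA came from whole cultures, fewer cells expressing a gene and less RNA per cell cannot be told apart.

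CSGALNACT1 was higher at 6 h, and at that time none of the other 9 enzymes was called in the same fit. CHSY1 with both drugs at 6 h was called in other fits. Its limma adjusted p was 0.00349 with replicate number as a block, where 5.27% of genes were called. It was 0.0416 with that block and without replicate 3, where 505 genes of all were called. With quantile normalization the limma adjusted p was 0.00197, where 335 genes of all were called. CSGALNACT1 signal was 6.76-fold higher with indacaterol and 8.62-fold higher with both drugs than with vehicle at 6 h, by the ratio of means. At 18 h its levels overlapped those of vehicle. In the fit without a block CHSY1, a chain polymerase, was the member that rose beyond the test, at 2 h. At that time the indacaterol difference of CSGALNACT1 was 0.12 on the log2 scale and not called. Over time in vehicle, CHPF2 fell by 18 h and XYLT2 passed a test of any change between times.

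The labelled cell type was checked against its markers. KRT8 and KRT18, keratins of simple epithelia, read 3048 to 6726 and 5118 to 9853 over all arrays. Of 8 fibroblast markers COL1A1, a fibrillar collagen, read 5431 to 10840, PDGFRB 797.5 to 2539 and THY1 715.2 to 1872, while COL1A2, COL3A1, PDGFRA, LUM and DPT read between 35.92 and 182.2. The arrays numbered replicate 3 stood apart in all 16 groups: KRT14 read 265800 to 419700 on them and 15.11 to 35.26 on the rest, and KRT5 read 30130 to 36670 against 114.5 to 269.4. KRT19 read 2287 to 4407 on replicate 3 and 0.00396 to 115.8 on the rest, with a median of 0.0277 there. EPCAM, an epithelial adhesion protein, read 28.69 to 141.3 outside replicate 3 and 109 to 248.8 on it. KRT7 read 239 to 5370 outside replicate 3 and 3946 to 10450 on it, and CDH1 140.9 to 439.6 and 547.9 to 1432. Of 4 leukocyte markers measured, PTPRC read 14.82 to 42.38 and CD3E 59.15 to 110.7 outside replicate 3. CD14 read 24.88 to 170.7 there and 140.6 to 289.5 on replicate 3, and LYZ 197.6 to 509.2 and 209.5 to 513.7. Summed over 8 epithelial markers, the lowest array of a group lay between 8808 and 14450 and the highest between 321600 and 472400, so this difference lay within every group and not between treatments. Median signal per array ran from 101.2 to 127.4. What replicate 3 contributes is given for several of the calls, though not for all, by leaving it out.

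CSGALNACT1, which adds the first N-acetylgalactosamine, has 2 probe sets. On the brighter of them the 4 vehicle arrays read 146.4, 109.9, 95.48 and 159.6 at 6 h in the order of replicates 1 to 4. Indacaterol arrays at 6 h read 1330, 635.3, 729.9 and 762.6, and arrays with both drugs 1598, 678.3, 1229 and 903.1. All 8 lay above every other array of the study: the 8 ran from 635.3 to 1598 with a median of 832.9, and the remaining 56 from 69.06 to 211.1 with a median of 135.4. With GSK 256066 alone at 6 h the signal was 155.8, 151.5, 99.52 and 131.1, which overlapped vehicle.

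On the log2 scale the CSGALNACT1 difference from vehicle at 6 h was 2.58 ± 0.25 (SE, n = 4 per group) with indacaterol, 2.91 with both drugs and 0.07 with GSK 256066. The value with both drugs stood 0.33 above that with indacaterol alone, and their arrays overlapped. Without replicate 3 the differences were 2.52 with indacaterol and 2.72 with both drugs, so the rise was about as large without those arrays. Replicate 1 gave the highest value in both groups.

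**Figure D1:**
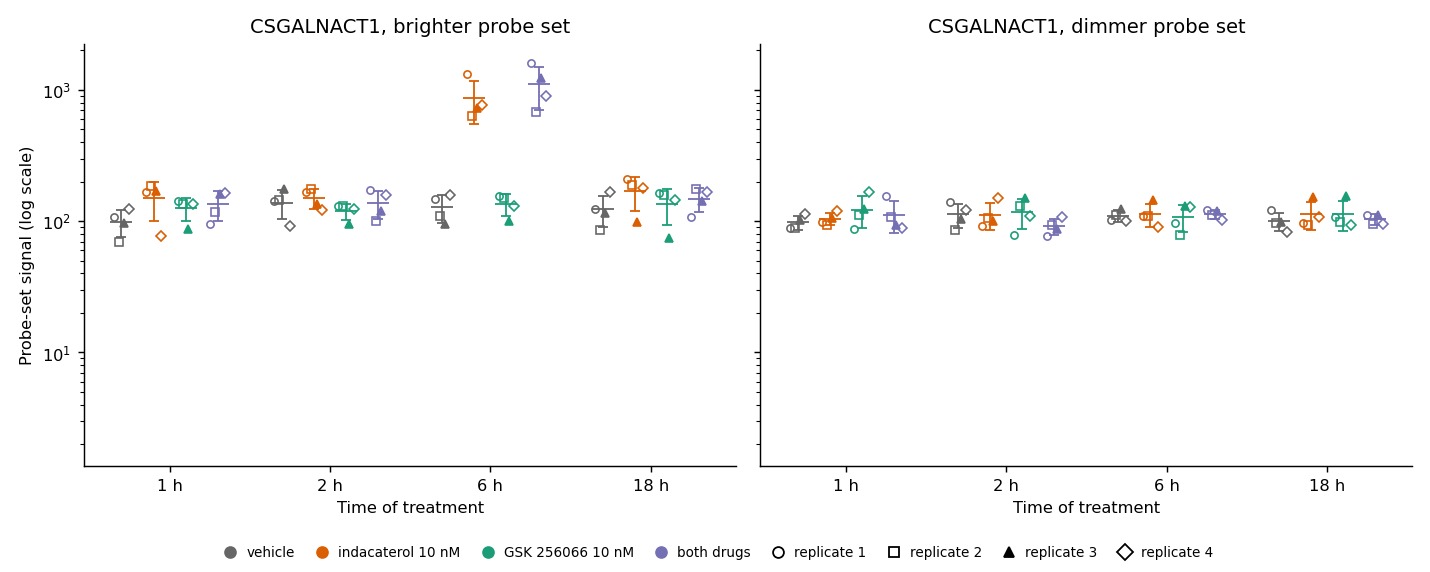
Signal of the brighter (left) and dimmer (right) probe set of CSGALNACT1 on a log axis, by time of treatment in hours. Each symbol is 1 array, its shape the replicate number, and bars are the mean ± SD of 4 replicates. On the left the 8 arrays with indacaterol or both drugs at 6 h (635.3 to 1598) lie above the other 56, and on the right no group stands apart.

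At 18 h the same probe set read 123.2, 86.32, 116.4 and 166.3 in vehicle and 211.1, 189.1, 98.61 and 178.9 with indacaterol. The difference was 0.40 with indacaterol, 0.25 with both drugs and 0.10 with GSK 256066. The groups overlapped. At the early times, which did not choose the gene, CSGALNACT1 was not called by limma: with indacaterol it differed from vehicle by 0.49 ± 0.25 at 1 h (adjusted p = 0.740). Its 2 h difference was 0.12 ± 0.25 (adjusted p = 0.995). For the 2 drugs together the values were 0.38 (adjusted p = 0.696) and -0.008 (adjusted p = 1). In vehicle the log2 difference of CSGALNACT1 from 1 h was 0.32 at 6 h and 0.265 at 18 h. Those arrays are the baseline of its late drug differences, so no test is given. The indacaterol value at 1 h was 0.85 without replicate 4, which read 76.47 there while the others read 166.4 to 187.

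The dimmer CSGALNACT1 probe set did not show the rise. It read 77.23 to 166.4 over all 64 arrays, and its 6 h means were 109.5 in vehicle, 113.4 with indacaterol and 113.6 with both drugs. Averaging both probe sets of CSGALNACT1 on the log2 scale gave 1.31 for indacaterol and 1.48 for both drugs at 6 h. Which transcripts the probe sets read was not analysed here.

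CSGALNACT2, the second initiating enzyme, stayed near vehicle. Its brightest probe set read 1508, 1274, 1319 and 1509 in vehicle at 6 h, 1592, 1621, 1096 and 1530 with indacaterol and 1255, 1448, 1754 and 1933 with both drugs. On this probe set the values overlapped in every drug comparison. At 6 h the difference was 0.05 with indacaterol (95% interval -0.34 to 0.43) and 0.17 with both drugs (-0.21 to 0.56). The brightest probe set of CSGALNACT2 carries the platform's mark for probes that may also match other transcripts. Its other probe sets, which read 612.2 to 1145 and 180.5 to 361.6, were not called in any comparison either.

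CHSY1, a chondroitin synthase that lengthens the chain with both of its alternating sugars, has 1 probe set. At 2 h it read 2512, 2404, 2526 and 2428 in vehicle, 4775, 4249, 4462 and 3787 with indacaterol, and 4825, 3631, 4309 and 4203 with both drugs. These 8 treated arrays (3631 to 4825) lay above all 56 others (2044 to 3473). Indacaterol was 1.75-fold and both drugs 1.72-fold above vehicle by the ratio of means. CHSY1 rose by 0.80 ± 0.11 on the log2 scale with indacaterol (limma adjusted p = 1.17e-06). The rise with both drugs was 0.77 ± 0.11 (adjusted p = 2.68e-06). Without replicate 3 the values were 0.79 (adjusted p = 4.62e-05) and 0.77 (adjusted p = 7.15e-05). With GSK 256066 alone at 2 h CHSY1 read 2865, 2331, 2310 and 2397, a difference of -0.001 with an interval from -0.22 to 0.21. The pair differed from indacaterol alone by -0.03 (interval -0.24 to 0.19).

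CHSY1 was smaller in its difference at the other times. At 1 h it read 3473, 2886, 2799 and 2431 with indacaterol against 2687, 2277, 2322 and 2286 in vehicle, and the difference of 0.27 did not pass (adjusted p = 0.497). At 6 h it read 2569, 2320, 2319 and 2686 in vehicle, 3311, 3029, 2443 and 3121 with indacaterol and 3403, 2966, 3262 and 3240 with both drugs. The 4 arrays with both drugs lay above the 4 of vehicle, while indacaterol overlapped it. The 6 h difference was 0.38 ± 0.11 with both drugs (limma adjusted p = 0.0803) and 0.26 ± 0.11 with indacaterol (adjusted p = 0.832). With replicate number as a block, in a comparison that met the pairing rule given below, the value with both drugs was called (limma adjusted p = 0.00349). It was called also when replicate 3 was left out of that fit (adjusted p = 0.0416). At 18 h the differences were 0.06 and 0.11.

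The indacaterol effect on CHSY1 differed between the 4 times by a moderated F-test in limma (adjusted p = 0.0357), and 0.268% of all genes were called by that test. Of the 9 members tested CHSY1 was the 1 called. The call was lost when any replicate number was left out, with adjusted p from 0.125 without replicate 1 to 0.603 without replicate 2, 0.301 without replicate 3 and 0.218 without replicate 4, and in a fit on the compared groups (0.0634). Leaving out a lone array ended it too for each vehicle array at 2 h, indacaterol replicates 1, 2 and 3 at 2 h, vehicle replicates 1 and 4 at 18 h, and indacaterol replicates 2 and 3 at 18 h, with adjusted p up to 0.159.

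CHPF, a partner protein of the chain polymerases, is the member with a promoter window that holds the full cyclic AMP response element, TGACGTCA, the sequence that factors of the CREB family bind. The window of CHSY1, the member called at 2 h, holds none. The windows of these 2 genes, 250 bases upstream of the annotated start and taken from RefSeq (GRCh38.p14), are shown with and without that motif, with TGACGTCA in capitals: chr15:101252049-101252298, minus strand, for CHSY1 and chr2:219543810-219544059, minus strand, for CHPF.
CHSY1: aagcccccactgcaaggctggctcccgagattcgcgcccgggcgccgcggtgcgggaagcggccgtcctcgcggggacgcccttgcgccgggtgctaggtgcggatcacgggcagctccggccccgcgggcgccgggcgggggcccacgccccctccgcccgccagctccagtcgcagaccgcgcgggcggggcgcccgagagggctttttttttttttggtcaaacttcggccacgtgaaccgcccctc
CHPF: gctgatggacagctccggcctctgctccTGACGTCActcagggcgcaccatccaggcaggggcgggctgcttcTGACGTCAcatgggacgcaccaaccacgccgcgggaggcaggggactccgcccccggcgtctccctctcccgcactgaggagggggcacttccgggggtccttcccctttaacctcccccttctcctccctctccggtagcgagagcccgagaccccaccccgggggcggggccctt
The search was for TGACGTCA, which reads the same on both strands, and for the shorter TGACG on either strand, which lies within every TGACGTCA. Among the RefSeq windows of that length, 35116 in number, 1.65% held TGACGTCA and 21.2% held TGACG or its complement CGTCA. RefSeq windows were matched for 9 of the 10 members, all but CSGALNACT1, 12 windows in all, and among these 12 a window of CHPF alone held TGACGTCA, at 222 and 177 bases before its start, while CHPF and CHSY3 held the shorter motif. A match is a description of letters in this window and not a bound site.

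CHPF did not follow CSGALNACT1 at 6 h. It read 498.9, 559.1, 334.2 and 549.8 in vehicle, 551.6, 527.7, 472.9 and 559.3 with indacaterol, and 621.7, 551.2, 551.4 and 585.5 with both drugs. The groups overlapped. The difference with both drugs was 0.27 ± 0.16 (limma adjusted p = 0.849) and 0.13 without replicate 3. With replicate number as a block, where the pairing rule was met, its SE was 0.089 and the limma adjusted p 0.065. Over the study CHPF was lower on replicate 3 arrays (334.2 to 551.4) than on most others (453.2 to 690.5). CHSY3, a further chondroitin synthase, was dim at 44.86 to 110.3 over all arrays. Its difference at 6 h was 0.24 with indacaterol (interval -0.09 to 0.56) and 0.02 with both drugs (-0.30 to 0.35).

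CHPF2, the paralogue of CHPF, fell with culture time and was called in no drug comparison. Its brighter probe set read 457.8, 497.1, 444.7 and 459.9 in vehicle at 1 h and 319.4, 307.5, 316.7 and 292.5 at 18 h, with no overlap. CHPF2 was lower by 18 h by a log2 difference of -0.57 ± 0.09 (limma adjusted p = 2.67e-05), where 1.58% of genes were called. The values in the other treatments were similar, with differences between 18 and 1 h of -0.54 with indacaterol, -0.55 with GSK 256066 and -0.50 with both drugs, each ± 0.09. All 16 arrays at 18 h (277.5 to 371.1) lay below all 48 earlier ones, of which the lowest read 399. That description over treatments was chosen after the values were seen.

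The second probe set of CHPF2 fell as well, from 373, 372.8, 326.5 and 337.1 in vehicle at 1 h to 227, 208.7, 213.4 and 215.6 at 18 h. That difference was -0.66 ± 0.08 (limma adjusted p = 1.08e-06 over 54613 probe sets, of which 1.16% were called). Its 16 values at 18 h, 187.4 to 236.3, again lay below all earlier ones, the lowest being 296.9. The F-test over time in vehicle gave adjusted p = 3.43e-07 for CHPF2, and 2.64e-07 without replicate 3. At 6 h the differences from vehicle were 0.03 with indacaterol and 0.07 with both drugs.

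**Figure D2:**
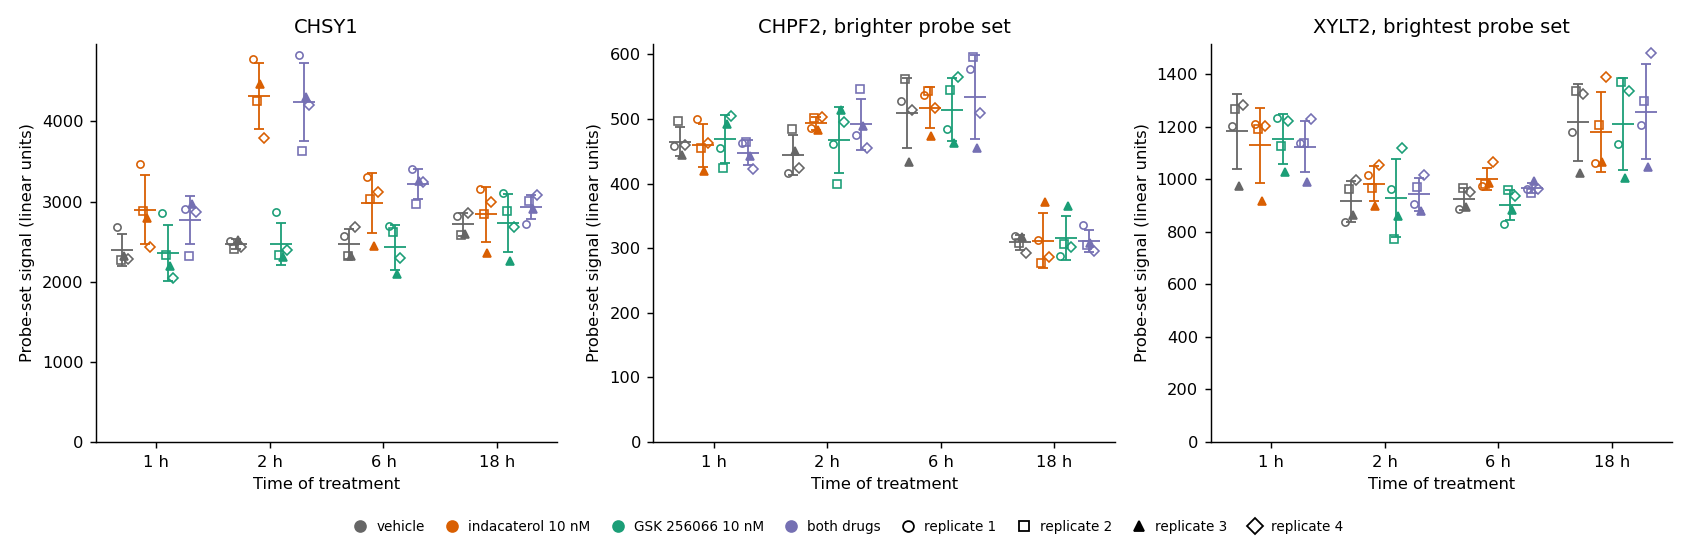
Signal of CHSY1, CHPF2 and XYLT2 on linear axes from 0, by time of treatment in hours. Each symbol is 1 array, its shape the replicate number, and bars are the mean ± SD of 4 replicates. CHSY1 is high with indacaterol and with both drugs at 2 h (3631 to 4825), CHPF2 is low in all treatments at 18 h (277.5 to 371.1), and XYLT2 in vehicle is lower at 2 and 6 h than at 1 and 18 h.

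XYLT2, one of the xylosyltransferases that start the chain, also varied with time in vehicle. Its brightest probe set read 1204, 1267, 975.1 and 1281 at 1 h, 838.3, 963.7, 862.6 and 996.7 at 2 h, 887.7, 967.7, 893.4 and 950.6 at 6 h, and 1181, 1337, 1024 and 1323 at 18 h. Values at 6 h all lay below those at 1 h and at 18 h, while 2 h overlapped 1 h through replicate 3. XYLT2 passed the F-test over time (limma adjusted p = 0.00551). That test called 6.65% of genes and 2 of the 9 members other than CSGALNACT1, XYLT2 and CHPF2. Against 1 h the difference was -0.36 ± 0.11 at 2 h (adjusted p = 0.109), -0.34 ± 0.11 at 6 h (adjusted p = 0.101) and 0.04 at 18 h (adjusted p = 1). With the replicate block, in a comparison that met the pairing rule, the 6 h value of XYLT2 was called (limma adjusted p = 0.0019). In that fit 7.02% of genes were called.

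The F-test of XYLT2 was lost without replicate 1 (adjusted p = 0.246) and without replicate 2 (0.151), and with all XYLT2 probe sets averaged (0.156), and kept without replicate 3 (0.000673). A second XYLT2 probe set read 411.3, 459, 366.1 and 423.5 at 1 h and 335.9, 348.9, 342.6 and 289.7 at 6 h. It passed the same F-test over probe sets (limma adjusted p = 0.0213, 5.2% of probe sets called). The third, which read 57.5 to 132.2, did not (adjusted p = 0.866). No drug comparison moved XYLT2 beyond the test, and at 6 h its difference was 0.11 with indacaterol (interval -0.10 to 0.32) and 0.06 with both drugs (-0.15 to 0.28).

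XYLT1, the other xylosyltransferase, was very dim on both probe sets, at 3.996 to 24.97 and 3.979 to 20.15, so its differences were measured close to the pseudocount of 16. In vehicle at 1 h XYLT1 read 3.996, 9.973, 8.942 and 15.73, and with indacaterol 9.73, 19.51, 17.4 and 24.97. The difference of 0.40 ± 0.14 was not called (limma adjusted p = 0.360). At 18 h XYLT1 read 10.16, 9.624, 13.92 and 15.88 in vehicle and 18.99, 20.48, 22.62 and 22.87 with indacaterol, without overlap, and the difference of 0.40 was not called either (adjusted p = 0.852). The second probe set overlapped vehicle there, with 10.39, 9.705, 10.87 and 13.96 against 13.81, 11, 7.608 and 4.753. The brighter one carries the same mark for probes that may match other transcripts. At 6 h the XYLT1 difference with indacaterol was 0.10.

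The sulfotransferases showed no drug change beyond the test. CHST11, which sulfates position C4 of N-acetylgalactosamine, read 94.26, 70.73, 94.56 and 53.13 in vehicle at 6 h and 104.1, 82.61, 139.2 and 77.7 with indacaterol. The groups overlapped and the difference was 0.31 ± 0.19 (limma adjusted p = 1, interval -0.07 to 0.69). Each of the 4 replicate numbers was higher with indacaterol. With the replicate block, where the pairing rule was met, the SE was 0.11 and the limma adjusted p 0.19. With both drugs it was 0.24 and with GSK 256066 0.21. CHST3, which sulfates the C6 position, read 594, 482.9, 550.8 and 458 in vehicle at 6 h and 615.9, 504.5, 496.8 and 536.3 with indacaterol, a difference of 0.05 (interval -0.24 to 0.34). Both genes varied with replicate number: the median of CHST3 was 651 in replicate 1, 517.6 in replicate 2, 613.9 in replicate 3 and 493.2 in replicate 4, and that of CHST11 was 103.2, 78.51, 112.9 and 78.45. Replicates 1 and 3 were the higher pair for both genes.

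**Figure D3:**
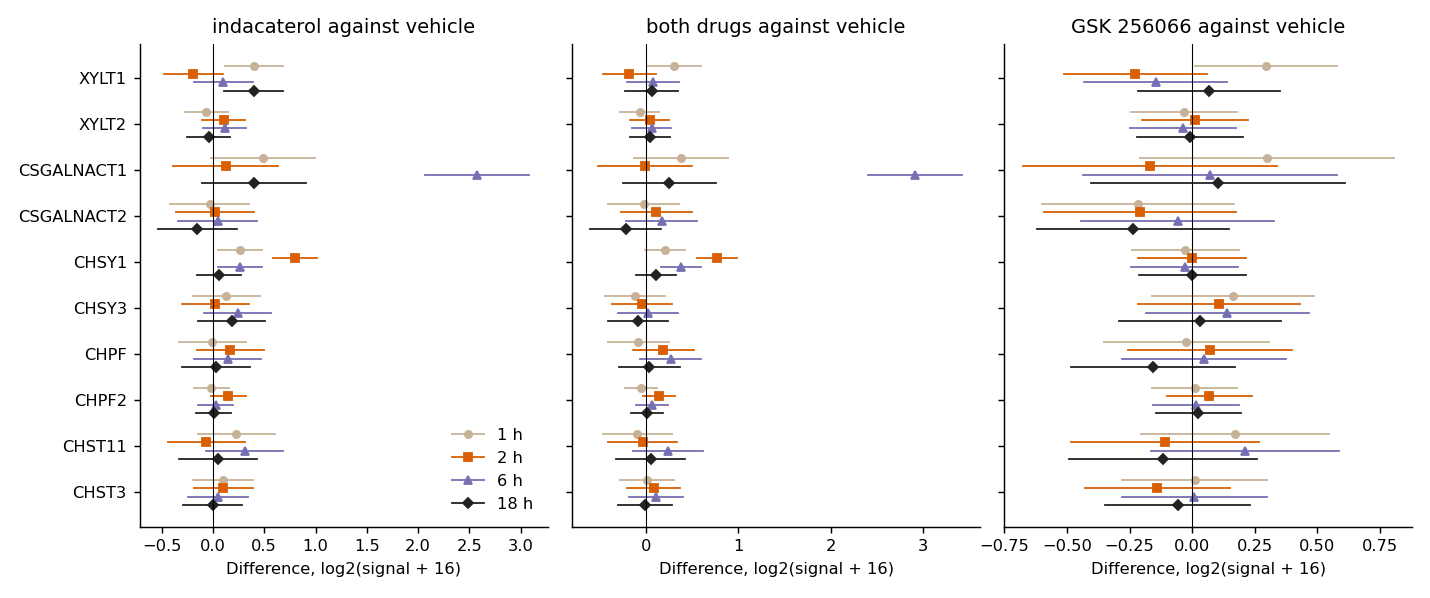
Difference from vehicle on the log2(signal + 16) scale with its 95% interval for each of the 10 enzymes, by drug and time; symbols are estimates and the axes of the panels differ in range. The values of CSGALNACT1 at 6 and 18 h are a description. CSGALNACT1 at 6 h (2.58 with indacaterol, 2.91 with both drugs) and CHSY1 at 2 h (0.80 and 0.77) lie farthest from 0.

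Counted over the 9 enzymes other than CSGALNACT1, indacaterol raised 1 (CHSY1) at 2 h and both drugs raised the same 1 at 2 h, where 1.2% and 1.05% of all genes were called. At 6 h, the time of the CSGALNACT1 rise, limma called 0 of 9 with indacaterol, against 0.273% of genes, and 0 of 9 with both drugs, against 0.759%. Unadjusted p was under 0.05 for 1 of 9 in each of these 6 h comparisons, CHSY1, against 4.79% and 7.64% of all genes. With the replicate block the count with both drugs at 6 h was 1 (CHSY1), where 5.27% of genes were called. The median difference of the 9 at 6 h was 0.11 with indacaterol and 0.11 with both drugs, against -0.005 and 0.002 over all genes tested. The highest upper bound of an interval among the 9 at 6 h was 0.69 with indacaterol, for CHST11, and 0.62 with both drugs, also for CHST11.

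At 1 h limma called 0 of 9 with indacaterol and 0 of 9 with both drugs, where 0.212% and 0.283% of genes were called. Unadjusted p was under 0.05 for 2 and 1 of the 9, against 7.07% and 9.38% of all genes. At 18 h it called 0 of 9 in both comparisons, where 0.00506% and 0.0354% of genes were called. Unadjusted p was under 0.05 for 1 of 9 (XYLT1) with indacaterol and 0 with both drugs, against 4.42% and 5.22% of all genes. GSK 256066 alone called 0 of 9 at each time, with 1 unadjusted at 1 h (XYLT1) and 0 at 2, 6 and 18 h. That drug called 0.00506% of all genes at 1 h and 0% at 2, 6 and 18 h, although 346 to 1404 genes had an unadjusted p under 0.05. Both drugs against indacaterol called 0 of 9 members and 0% of genes at every time, with 250 to 346 genes under 0.05 unadjusted, and among the members XYLT1 at 18 h alone. The interaction, which asks whether indacaterol does more beside GSK 256066 than alone, called 0 of 9 members and 0% of genes at every time in limma, with no member and 259 to 547 genes under 0.05 unadjusted. In vehicle against 1 h, 0 of 9 were called at 2 h and 0 of 9 at 6 h, where 0.192% and 1.21% of genes were called. Unadjusted p was under 0.05 for 2 and 1 of the 9, against 12.5% and 11.3% of all genes. At 18 h against 1 h 1 of 9 was called, CHPF2 (1 unadjusted), where 1.58% of genes were called and 9.69% passed unadjusted.

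The genes whose pattern was most like that of CSGALNACT1 were found by Pearson correlation over the 16 group means, among 476 genes whose group means spanned at least 1 log2 unit. They were NETO1, a kainate receptor auxiliary protein (r = 0.955), ITPR1, a calcium release channel (0.951), PDE7B, a cyclic AMP phosphodiesterase (0.944), SH3RF3, a ubiquitin ligase (0.939), and TANC2, a scaffold protein (0.938). These points share the same arrays, and the likeness is a description. PDE7B had a mean of 102.5 in vehicle at 6 h, 438.4 with indacaterol and 488 with both drugs. NETO1 went from 314.5 to 696.1 and 761.1 in the same order.

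The wider pathway was described with 7 lists of 61 genes, of which 54 were measured: enzymes of the linker, other modifying enzymes of chondroitin and dermatan sulfate, sugar and sulfate donors, core proteins, heparan sulfate chain enzymes, hyaluronan synthases and breakdown enzymes. With indacaterol at 2 h, 3 of 54 rose and 0 fell, where 1.2% of all genes were called, and with both drugs the same 3 rose and 0 fell, where 1.05% were. The indacaterol count was 5 without replicate 3. Without replicate 1 it was 1, where all genes called went from 237 to 99. The count with both drugs was 1 without replicate 1, where all genes called went from 208 to 94. At 6 h 1 rose and 0 fell with indacaterol (0.273% of genes called), and 2 rose and 0 fell with both drugs (0.759%). These 6 h counts were 0 and 0 without replicate 2, where 22 and 59 genes of all were called in place of 54 and 150. The indacaterol count was 0 also without replicate 1 or 4, where 33 and 27 genes of all were called. The median difference over the 54 was 0.11 and 0.06 at 2 h, and 0.05 and 0.02 at 6 h. Over all genes it was 0 and -0.02 at 2 h, and -0.005 and 0.002 at 6 h. At 1 and 18 h limma called 0 of 54 with indacaterol and with both drugs, with 1 and 3 under 0.05 unadjusted at 1 h and 2 and 5 at 18 h. The shares of all genes called were 0.212% and 0.283% at 1 h and 0.00506% and 0.0354% at 18 h. Unadjusted p was under 0.05 for 7.07% and 9.38% of all genes at 1 h and 4.42% and 5.22% at 18 h. None of 5 linker enzymes was called in any of these comparisons.

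SLC26A2, the sulfate transporter that feeds sulfation, was the pathway gene called with indacaterol at 6 h. It read 6927, 6637, 4458 and 7025 in vehicle at 6 h, 11140, 11290, 8769 and 11270 with indacaterol, and 11480, 12300, 11270 and 11610 with both drugs. Both treated groups lay above vehicle without overlap. SLC26A2 rose by 0.78 ± 0.18 with indacaterol (limma adjusted p = 0.0255). With both drugs the rise was 0.92 ± 0.18 (adjusted p = 0.0014). Without replicate 3, which was lowest in vehicle, the values were 0.71 (adjusted p = 1.47e-06) and 0.78 (adjusted p = 1.48e-07). The indacaterol call was lost without replicate 1 (0.327), 2 (0.553) or 4 (0.239) and without the lone arrays vehicle replicate 3 (0.34) and indacaterol replicates 1 (0.1), 2 (0.105) and 4 (0.101), and the call with both drugs without replicate 2 (0.0763). At 2 h SLC26A2 differed by 0.54 with both drugs (limma adjusted p = 0.185, and 0.000129 with the replicate block, where the pairing rule was met). Without replicate 3 the 2 h difference of SLC26A2 was called, at 0.43 with indacaterol (adjusted p = 0.00188) and 0.49 with both drugs (adjusted p = 0.000452), as it was with its probe sets averaged, at 0.73 and 0.75 (adjusted p = 0.0427 and 0.0331). The second SLC26A2 probe set was higher by 0.91 with indacaterol and 1.05 with both drugs at 6 h.

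CHST15, which adds a further sulfate at C6 of 4-sulfated N-acetylgalactosamine, rose at 2 h. It read 1007, 918.1, 1063 and 879.9 in vehicle, 1534, 1325, 1612 and 1196 with indacaterol, and 1496, 1236, 1575 and 1132 with both drugs. The treated arrays lay above vehicle without overlap. The rise was 0.54 ± 0.12 with indacaterol (limma adjusted p = 0.00384) and 0.48 ± 0.12 with both drugs (adjusted p = 0.0166). The indacaterol call of CHST15 was lost without replicate 1 (0.0618) or 2 (0.0722). The call with both drugs was lost without replicate 1 (0.191), 2 (0.156) or 3 (0.0992) and without the lone 2 h arrays vehicle replicates 2 (0.073) and 4 (0.0989) and both-drug replicates 1 (0.11) and 3 (0.17). With all CHST15 probe sets averaged neither was called (0.33 and 0.30 on the log2 scale).

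HS6ST1, a 6-O-sulfotransferase of heparan sulfate, and THBD, thrombomodulin, a cell surface protein that can carry a chondroitin sulfate chain, were the other genes called at 2 h. HS6ST1 read 727.7, 735.9, 761.6 and 692.8 in vehicle, 1376, 1092, 1347 and 916.8 with indacaterol, and 1275, 1025, 1365 and 932.6 with both drugs. It rose by 0.67 ± 0.13 (limma adjusted p = 0.00123) and 0.63 ± 0.13 (adjusted p = 0.00293), and without replicate 3 the rises were 0.62 and 0.56 (adjusted p = 0.0152 and 0.0444). At 6 h HS6ST1 rose by 0.61 with both drugs (adjusted p = 0.00651), a call lost without replicate 2 (0.0868) or 3 (0.213) and without the lone both-drug replicate 3 (0.0957). THBD read 597.3, 791.8, 595.7 and 554.9 in vehicle at 2 h, 1261, 1470, 2300 and 991.3 with indacaterol, and 1144, 1217, 1911 and 1090 with both drugs. No treated array of either gene overlapped vehicle at 2 h, and replicate 3 was highest for THBD. THBD rose by 1.17 ± 0.24 (adjusted p = 0.00217) and 1.04 ± 0.24 (adjusted p = 0.0105), and without replicate 3 by 0.92 (adjusted p = 0.00674) and 0.83 (adjusted p = 0.0234). The indacaterol call of THBD was lost without replicate 1 (0.0519), and that with both drugs without replicate 1 (0.128) or 4 (0.0928) and without the lone 2 h arrays vehicle replicate 4 (0.0524) and both-drug replicate 3 (0.138).

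**Figure D4:**
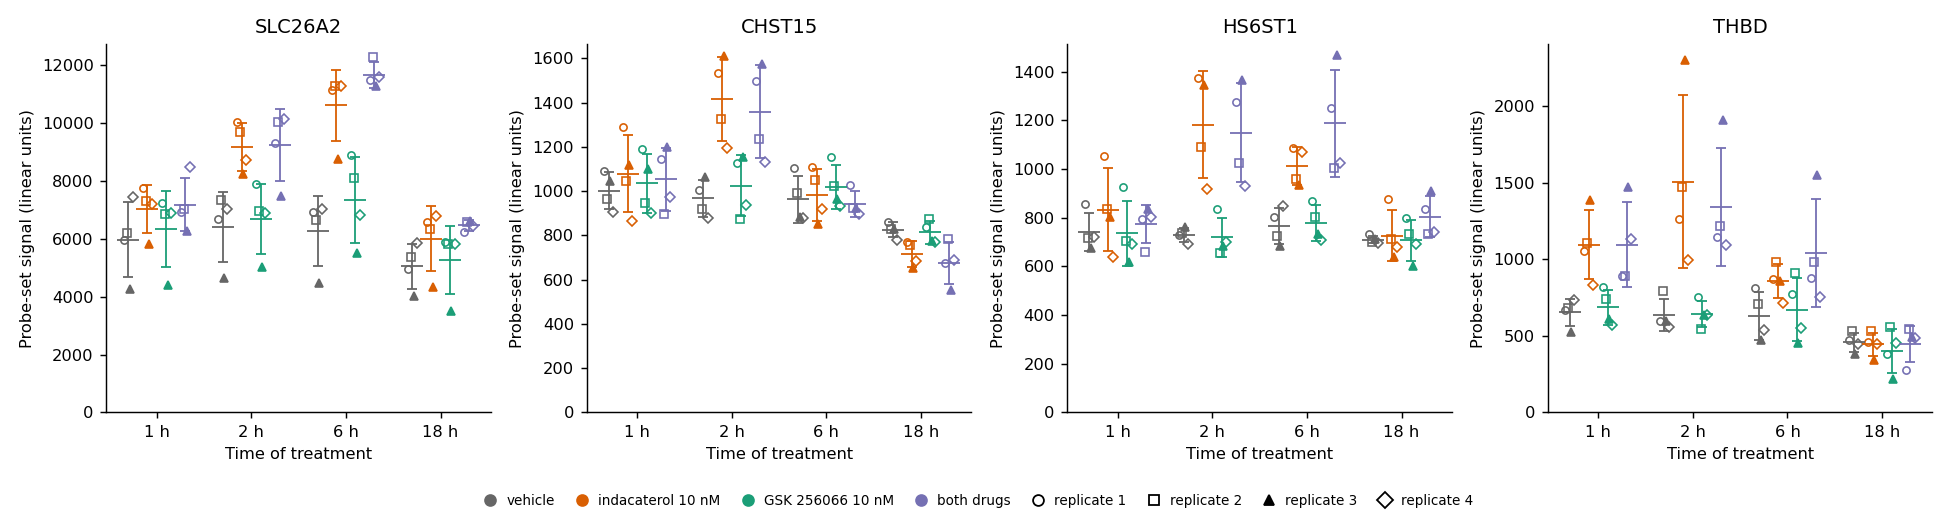
Signal of SLC26A2, CHST15, HS6ST1 and THBD on linear axes from 0, by time of treatment in hours. Each symbol is 1 array, its shape the replicate number, and bars are the mean ± SD of 4 replicates. SLC26A2 is highest with indacaterol or both drugs at 6 h (8769 to 12300), CHST15 and THBD with these drugs at 2 h.

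In the comparisons given here, which met the pairing rule, the replicate block raised the pathway counts. With both drugs at 2 h, 5 of 54 rose (3.45% of genes called), adding SLC26A2 and SDC4, a syndecan. With indacaterol at 6 h 5 rose (2.31% called): SLC26A2, HS6ST1, UST, which sulfates the uronic acid, VCAN, the core protein versican, and CD44. With both drugs at 6 h 7 rose, among them these 5, SRGN and SDC4, and 2 fell, UGP2 and PAPSS1, which make sugar and sulfate donors, where 5.27% of genes were called. Without replicate 3 that block count was 6 in place of 9, while all genes called went from 1043 to 505. With indacaterol at 1 h 1 rose, SDC4 (1.04% called). In vehicle at 18 h against 1 h limma called 0 of 54 (4 unadjusted), where 1.58% of genes were called and 9.69% passed unadjusted. With the block 3 were higher (UXS1, VCAN, BGN) and 3 lower (CHST15, GALNS, HYAL3), where 7.92% of genes were called. At 6 h against 1 h in vehicle 0 of 54 were called (1 unadjusted), where 1.21% of genes were called and 11.3% passed unadjusted. With the block 1 of 54 fell, the linker enzyme B3GALT6, where 7.02% of genes were called.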

How the data were processed

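Gene expression was measured on 64 one-colour arrays. The deposited values are probe-set intensities on a linear scale made by the authors. The tools listed, per the submitters' processing notes, are PLIER and Transcriptome Analysis Console 4, and their settings are not given in the sources used here. The deposited scaling between arrays was kept. The platform annotation, which can be old, covers 54675 probe sets: 62 are controls, 41091 name 1 gene, 1801 name several and 11721 name none. In all, 41043 took a current symbol through the gene ID. No gene was named from a probe set with several symbols.

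Intensities were used as log2(signal + 16), and each of 19775 genes was represented by its brightest probe set, by mean over all arrays. A limma fit (version 3.58.1, R 4.3.3) used all 64 arrays with a mean per group and 48 residual degrees of freedom. Contrasts were two-sided, with Benjamini-Hochberg adjustment over all genes. Moderated F-tests asked whether vehicle, or the indacaterol effect, differed between times. The same model was fitted to 54613 probe sets. The fitting script was tested on simulated data.

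The members, gene lists and tests were chosen with earlier results of these data known. Named genes are the 10 members, any listed pathway gene that was called, and the 5 genes nearest in pattern to CSGALNACT1 over group means. Cell type markers were listed for epithelial, fibroblast, chondrocyte, leukocyte, and ciliated and secretory cells, and over all arrays the summed signal was 880.6 to 1649 for the chondrocyte list, 355.9 to 920.1 for the leukocyte list, 686.3 to 1081 for the ciliated and secretory list and 7814 to 15260 for the fibroblast list. Their part in the results was not tested.

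Replicate numbers recur in every group, and the labels do not say what they mark. The pairing rule asked that, for each of the 4 numbers, the residuals of the arrays sharing it had a correlation over 0.1. This was met in 12 of 16 comparisons between treatments, and in vehicle at 6 and 18 h against 1 h. Exceptions included indacaterol at 2 h, with a lowest correlation of 0.0802, and both F-tests, with 0.0912 and 0.0101. Replicate 3 stood apart in every group and enters each group mean, which can raise the correlations of the other numbers. The rule therefore cannot show on its own that replicates 1, 2 and 4 paired the arrays. Alternatives were the replicate block, other pseudocounts, quantile normalization, a filter on dim genes, the mean of all probe sets of a gene, a fit on the compared groups, and leaving out replicates.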

Additional observations from a re-analysis of the deposited data

Results flagged for a closer look

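In 11 of 160 groups of 4 arrays (10 genes in 16 groups), 1 array stood far from the other 3 by Dixon's criterion, which chance alone meets in about a 0.05 share of groups. CSGALNACT1 read 76.47 with indacaterol at 1 h in replicate 4 (others 166.4 to 187), 87.14 with GSK 256066 at 1 h in replicate 3 (135.4 to 143.3) and 74.7 with GSK 256066 at 18 h in replicate 3 (145.1 to 164). CSGALNACT2 read 1096 with indacaterol at 6 h in replicate 3 (1530 to 1621). CHSY1 read 2687 in vehicle at 1 h in replicate 1 (2277 to 2322) and 2327 with both drugs at 1 h in replicate 2 (2868 to 2975). CHSY3 read 74.2 with both drugs at 6 h in replicate 2 (55.69 to 58.02). CHPF read 444.2 in vehicle at 1 h (580 to 612.3) and 416.5 with indacaterol at 18 h (551.8 to 581.5), both in replicate 3. XYLT2 read 915.2 with indacaterol at 1 h in replicate 3 (1192 to 1209) and 1065 with indacaterol at 6 h in replicate 4 (972.7 to 984.4).

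The indacaterol effect on CHSY1 differed between the 4 times (F-test in limma, adjusted p = 0.0357). It was 0.27 at 1 h, 0.80 at 2 h, 0.26 at 6 h and 0.06 at 18 h on the log2 scale. The F-test call was lost when any replicate number was left out (adjusted p = 0.125 to 0.603). In the fit on the compared groups it was lost too (adjusted p = 0.0634).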

How the results depend on the processing

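Of 504 recomputed counts of members called, 482 stayed within 1.5 times their value and 22 moved. These counts include comparisons that called 0% of genes, such as both drugs against indacaterol, where a count of 0 had little room to move. With the replicate block, with the replicate block without replicate 3, and with quantile normalization, both drugs at 6 h called 1 member (CHSY1) in place of 0. Vehicle over time called 1 member (CHPF2) with the mean of all probe sets, and 1 to 2 when replicates were left out. The indacaterol effect between times called 0 members in the fit on the compared groups and 0 to 1 when arrays were left out. Of 6702 recomputed values of the 10 members and 4 named pathway genes, 6587 kept their call whatever the size, or stayed uncalled and close. The late CSGALNACT1 values, which have no test, were judged by closeness alone. Of the rest 47 moved, 55 lost and 13 gained a call, and 0 reversed. The cause was not tested. All 9 pathway calls were lost in the fit on the compared groups, which has fewer arrays. CHSY1 at 2 h kept its call in all 20 alternatives, from 0.75 to 0.86 with indacaterol and 0.71 to 0.84 with both drugs. CSGALNACT1 at 6 h ran from 1.31 to 2.72 with indacaterol and from 1.48 to 3.12 with both drugs, lowest with the mean of both probe sets. With the replicate block, indacaterol at 2 h, where the pairing rule was not met, called 7 of 54 pathway genes in place of 3. The share of all genes called went from 1.2% to 3.8%. CHSY1 between times had adjusted p = 0.00031 by the F-test in limma with the block. No other call of a member in a comparison that met the pairing rule changed with the block, apart from CHSY1 and XYLT2 as given above. XYLT1 and other dim genes were judged by signal, without detection calls.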
